A study of Rattus norvegicus and Mus musculus with 24 samples.

Results

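The 8 libraries described here came from *Ctns* wild-type (WT) rats, and the 4 rats numbered 25, 27, 29 and 31 were compared with the 4 rats numbered 17, 19, 21 and 23. They were chosen by the genotype given for each sample and by the number that ends its name, and they are 8 of the 24 samples of a study of *Ctns*, the gene of the lysosomal cystine transporter that is lost in cystinosis. That study sequenced RNA from kidneys of 8 mice and 16 rats, WT or knockout (KO) for *Ctns*. The WT rats were control littermates of a knockout line on a Sprague-Dawley background, and the labels name no other allele and no treatment for them. The 8 KO rats, numbered 18, 20, 22 and 24 in the first range and 26, 28, 30 and 32 in the second, were used only to set the same contrast in the other genotype beside that of the WT rats. Nothing in the labels says what the ranges 17 to 24 and 25 to 32 stand for, and no age, sex, date or batch of the sequenced rats is given in the sources used here. What follows therefore describes how 2 sets of WT rats differed, and any property that separates the sets cannot be told apart from any other.

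The renal cortex is made largely of proximal tubule, whose cells take back filtered solutes, secrete organic anions and cations through transporters of the SLC22 family and burn fatty acids for energy. Glomeruli with their podocytes, thick limb, distal tubule, collecting duct, vessels and resident immune cells lie between the proximal tubules. In RNA from bulk tissue, fewer cells of a type and less RNA per cell cannot be told apart.

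Each rat was represented by 1 library. Between 25002089 and 32568495 reads were assigned to genes in the rats 17 to 24, and between 28548939 and 40629873 in the rats 25 to 32. The totals did not separate the sets (exact permutation test, two-sided p = 0.686, where 0.0286 was the smallest p that 4 against 4 allow). Transcripts encoded in the mitochondrial genome took 17.7% to 21.3% of reads in the first set and 19.6% to 21.6% in the second (p = 0.143, exact permutation test), and the 50 most abundant genes took 29.98% to 33.4% and 32.8% to 35.3% (p = 0.0571, exact permutation test). Levels are given as CPM, that is, reads scaled to a common library total by the TMM method over all 16 rats, and they are not corrected for gene length. The labels name kidney cortex as tissue and proximal tubule cells as cell type. The data held genes of the proximal tubule (12 listed genes found, summing to 26449 to 37908 CPM over the 8 rats) together with genes of podocytes (7 genes, 684.8 to 1141 CPM), thick limb (3 genes, 2348 to 3629 CPM), endothelium (8 genes, 610.1 to 746.4 CPM) and macrophages (14 genes, 156 to 285 CPM), so the libraries were not of proximal tubule cells alone. *CTNS* itself stood at 19.2, 19.5, 20.2 and 22.7 CPM in rats 17, 19, 21 and 23 and at 22.99, 27.96, 25.2 and 21.4 CPM in rats 25, 27, 29 and 31. The sets overlapped and the difference did not pass the threshold (log2 fold change 0.23 ± 0.10 SE, adjusted p = 0.115, edgeR).

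The first principal component of the 8 WT libraries separated the ranges and carried 53.0% of the variance. Rats 17 to 23 lay between -24.2 and -22.0 on it and rats 25 to 31 between 19.5 and 27.1. The second component, 13.4% of the variance, spread the rats 25 to 32 from -21.7 in rat 27 to 17.7 in rat 31, whereas the rats 17 to 24 lay between -9.65 and 8.98. Over all 16 rats, the 4 combinations of genotype and range each formed a group of their own.

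**Figure D1:**
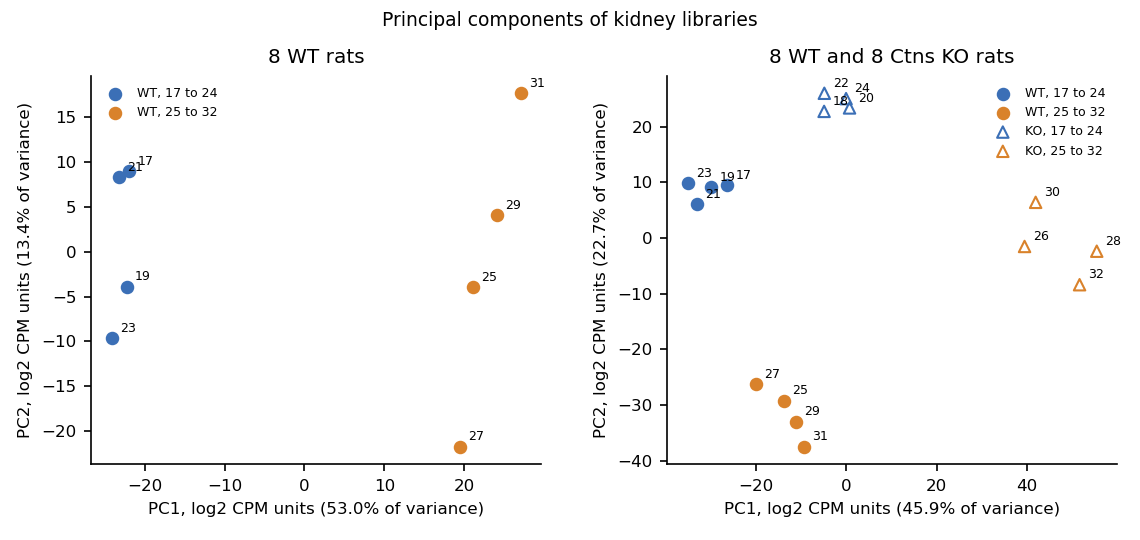
Principal component scores (log2 CPM units) of the 8 WT rats (left) and of all 16 rats (right), with points labelled by rat number, circles for WT, triangles for KO and colours for the number range. On the left the ranges lie on opposite sides of PC1, which holds 53.0% of the variance.

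In edgeR's quasi-likelihood test, 2108 of 11504 gene symbols (18.3%) differed between the ranges at a Benjamini-Hochberg adjusted p under 0.05. Of these, 1011 (8.79% of those tested) were higher and 1097 (9.54%) lower in the rats 25 to 32. Counts of called genes in the lists below are to be read beside these shares of all symbols. The differences were mostly small, with a median absolute log2 fold change of 0.46, and 267 symbols changed at least 2-fold, 153 upwards and 114 downwards. For 2624 symbols (22.8%) the values of one set lay wholly above those of the other, and these included 1885 of the 2108. The count was 1370 without rat 29, 1464 without rat 19 and 1587 without rat 21, and it rose only without rat 27, to 2313. Rat 29 was thus not alone in lowering the count when left out.

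A small number of genes were near absent in one set and plainly present in the other. Among the 12 largest rises, *MPPED1*, a metallophosphoesterase gene best known from brain, had no read in rats 17, 19, 21 and 23 and 361, 159, 159 and 232 reads in rats 25, 27, 29 and 31. Set against a floor of 3 reads over the lower group, its level was at least 314-fold higher in the rats 25 to 32. *MLC1*, a membrane protein gene of astrocytes, had 0, 2, 0 and 1 reads in the first set against 112, 121, 146 and 119, a ratio of 172 (95% exact counting interval 58.5 to 836, which covers counting error only). The 12 largest rises and the 12 largest falls were taken only from called symbols whose WT sets did not overlap. The lack of overlap in WT rats described for them here and below is therefore a condition of entry, not a result.

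*GC*, which encodes the vitamin D-binding protein, was at 0.0403, 0, 0.0924 and 0.0630 CPM in rats 17, 19, 21 and 23 and at 5.96, 3.96, 4.86 and 5.23 CPM in rats 25, 27, 29 and 31 (log2 fold change 6.54 ± 0.35 SE, adjusted p = 2.27e-06). *SLC22A10*, a symbol of the organic anion transporter family, stood at 2.22, 2.21, 1.63 and 1.29 CPM against 85.97, 71.7, 72.1 and 104 CPM (5.49 ± 0.18, adjusted p = 1.34e-07). The lowest rat of the second set was far above the highest of the first for both. Human-style symbols name the rat genes in the table, so that *SLC22A10*, *MBL1P* and *OACYLP* stand for rodent relatives which cannot be told apart by name.

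Angiotensinogen (*AGT*), the precursor of angiotensin, was at 0.846, 0.177, 0.585 and 0.944 CPM in rats 17, 19, 21 and 23 and at 9.32, 7.52, 7.76 and 8.60 CPM in rats 25, 27, 29 and 31 (log2 fold change 3.70 ± 0.30 SE, adjusted p = 3.05e-05). *CIDEC*, a gene of lipid droplet growth, was at 0.806, 0.266, 0.585 and 0.724 CPM against 8.12, 5.57, 6.03 and 8.86 CPM (3.58 ± 0.27, adjusted p = 2.25e-05). In both genes every rat of the second set was well above every rat of the first. *GUCY1B2*, a subunit of soluble guanylate cyclase, went from 0.692 to 1.01 CPM up to 12.7 to 21.7 CPM, with a log2 fold change of 4.23. Other members of the 12 rose by between 3.68 and 4.41 on the log2 scale. They were *CACNG5* (a calcium channel subunit), *ANGPTL7* (a secreted angiopoietin-like protein), *MBL1P* (a mannose-binding lectin symbol) and *DHRS7* (a short-chain dehydrogenase), the last with estimated counts that were not whole.

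The largest fall was measured for alcohol dehydrogenase. *ADH6* and *ADH1A*, symbols of that enzyme family, had identical counts in every library and are 1 measurement, at 93.2, 56.6, 94.7 and 170 CPM in rats 17, 19, 21 and 23 and at 0.447, 0.469, 0.339 and 1.48 CPM in rats 25, 27, 29 and 31 (log2 fold change -7.29 ± 0.51 SE, adjusted p = 6.23e-05). *COL17A1*, a transmembrane collagen of hemidesmosomes, was at 31.5, 36.3, 59.2 and 51.3 CPM against 0.335, 1.17, 1.28 and 0.964 CPM (-5.57 ± 0.31, adjusted p = 6.21e-06). Every rat of the first set was far above any of the second.

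*SLC22A7*, the organic anion transporter OAT2, was at 14.7, 5.73, 17.4 and 14.3 CPM in rats 17, 19, 21 and 23 and at 0.783, 0.547, 0.753 and 1.08 CPM in rats 25, 27, 29 and 31 (log2 fold change -4.09 ± 0.36 SE, adjusted p = 6.87e-05). *OAT*, ornithine aminotransferase of the mitochondrion, was at 1770, 1286, 3215 and 4096 CPM against 401, 443, 349 and 377 CPM (-2.75 ± 0.34, adjusted p = 0.000964). The spread of *OAT* lay in the first set, which ran from 1286 CPM in rat 19 to 4096 CPM in rat 23, while the second set was tight (392 ± 39.9 CPM, SD, n = 4). *NKX1-2*, a homeobox gene that neighbours *Oat* in the rat genome, was at 3.50, 1.71, 4.003 and 6.36 CPM and at 0.484, 0.703, 0.188 and 0.371 CPM (-3.11 ± 0.44, adjusted p = 0.00108). Rats 19, 17, 21 and 23 stood in the same ascending order for both neighbours, and for *ADH6*. In rats 25 to 31 *OAT* and *NKX1-2* again shared an order, but *ADH6* did not follow it. In neither set of KO rats did *OAT* and *NKX1-2* share an order. These orders were looked at after the values were seen. *AZGP1*, a secreted lipid-mobilising glycoprotein, fell from 80.2 to 101 CPM down to 17.1 to 21.01 CPM. Also among the 12 largest falls were *CNR1* (cannabinoid receptor, -3.23), *ARMC3* (-3.90), *OACYLP* (-2.79), *TEX26* (-2.51) and *CRTAC1* (a secreted cartilage protein, -2.005), as log2 fold changes.

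**Figure D2:**
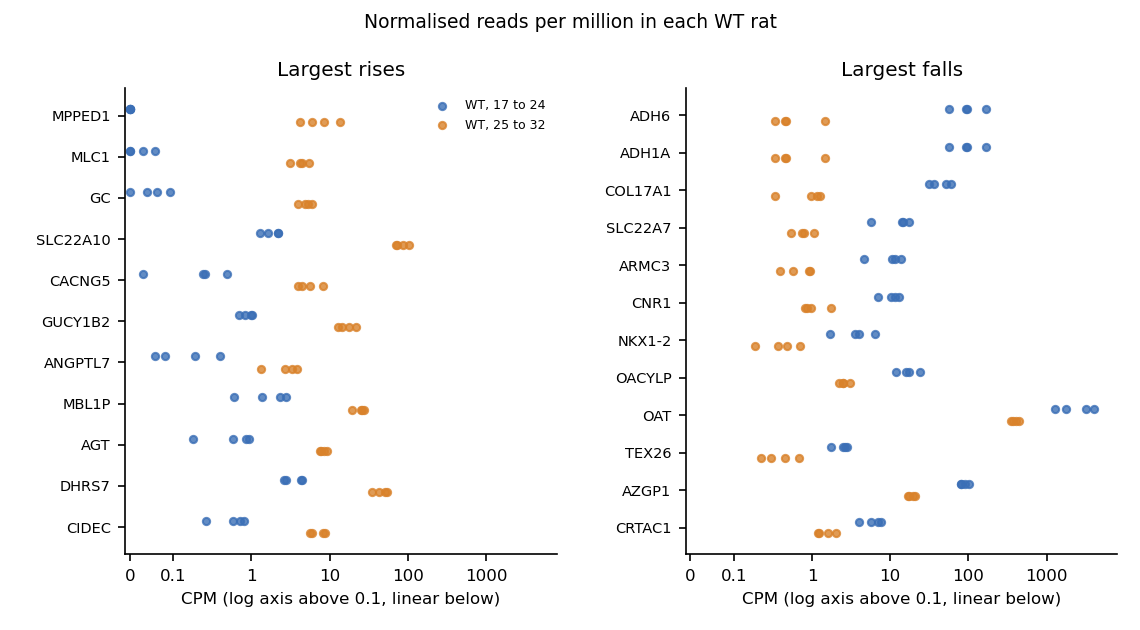
CPM in each of the 8 WT rats for 11 of the 12 largest rises (left) and the 12 largest falls (right) among symbols past the threshold, on an axis that is logarithmic above 0.1 CPM and linear below. Each point is 1 rat. Only symbols whose ranges did not overlap could enter. *MPPED1* is at 0 in all 4 rats of the first set, and *ADH6* and *ADH1A* are 1 measurement.

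Promoters of these 24 genes were searched for 7 short motifs in RefSeq sequences of the build GRCr8, from 250 bases before to 50 bases after the start of the gene, on both strands. A sequence was found for 15 of the 24, and 3 of these held a motif. *Cidec* had an AP-1 motif (TGACTCA) 108 bases before the start, *Nkx1-2* an E-box (CACGTG) 115 bases before it and *Crtac1* a D-box (TTATGTAA, here on the opposite strand) 95 bases before it. Their promoters are shown with that of *Oat*, which held none of the motifs but lies next to *Nkx1-2* and moved with it, with the motif in capitals. The regions, all on the minus strand, are chr4:148137066-148137365 for *Cidec*, chr1:196821322-196821621 for *Nkx1-2*, chr1:196797705-196798004 for *Oat* and chr1:251182640-251182939 for *Crtac1*.
Cidec: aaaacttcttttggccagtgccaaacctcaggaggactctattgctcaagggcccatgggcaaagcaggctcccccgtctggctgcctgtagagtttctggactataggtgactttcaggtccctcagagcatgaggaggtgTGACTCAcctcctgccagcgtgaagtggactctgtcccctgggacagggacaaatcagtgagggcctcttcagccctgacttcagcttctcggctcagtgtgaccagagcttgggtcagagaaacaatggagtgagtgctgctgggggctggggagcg
Nkx1-2: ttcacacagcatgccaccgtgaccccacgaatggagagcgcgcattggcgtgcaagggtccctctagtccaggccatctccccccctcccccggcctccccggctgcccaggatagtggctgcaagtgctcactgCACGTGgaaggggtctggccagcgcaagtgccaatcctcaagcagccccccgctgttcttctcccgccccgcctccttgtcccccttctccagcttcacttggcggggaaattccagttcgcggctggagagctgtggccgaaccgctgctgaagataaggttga
Oat: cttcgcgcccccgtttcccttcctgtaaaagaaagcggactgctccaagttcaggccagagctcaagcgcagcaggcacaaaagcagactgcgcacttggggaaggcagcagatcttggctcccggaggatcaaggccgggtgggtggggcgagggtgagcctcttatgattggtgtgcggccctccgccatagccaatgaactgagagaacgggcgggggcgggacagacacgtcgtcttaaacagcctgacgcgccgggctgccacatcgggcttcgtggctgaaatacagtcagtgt
Crtac1: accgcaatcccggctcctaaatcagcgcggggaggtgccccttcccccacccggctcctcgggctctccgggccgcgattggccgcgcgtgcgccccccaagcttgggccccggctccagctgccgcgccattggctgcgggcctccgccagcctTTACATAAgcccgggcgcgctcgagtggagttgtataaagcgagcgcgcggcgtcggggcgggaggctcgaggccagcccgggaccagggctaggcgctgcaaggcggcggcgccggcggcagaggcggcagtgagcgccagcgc
Few promoters of changed genes held any 1 motif, and the shares were not tested. An E-box was found in 6 (5.88%) of the 102 matched promoters of symbols that rose at least 2-fold and in 7 (8.75%) of the 80 of those that fell, beside 9.33% of 8962 tested symbols. In the same order, the AP-1 motif was in 6, in 3 and in 3.38% of the tested symbols, and the D-box in 2, in 1 and in 0.413%. The cyclic AMP element (TGACGTCA) was in 2, in 1 and in 2.89%, and the heat shock element in 1, in 0 and in 0.491%. The glucocorticoid or androgen element and the sterol element were in none of these promoters. These shares describe letters in a window and say nothing of binding.

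Carriers of organic ions move drugs and waste products across the proximal tubule. Of 13 tested organic ion transporters, 6 were higher and 2 lower in the rats 25 to 32 (61.5% called, beside 18.3% of all symbols). Their median log2 fold change was 0.36, against -0.01 over all symbols tested. *SLC22A6*, the basolateral organic anion transporter OAT1, was at 707, 825, 1149 and 961 CPM in rats 17, 19, 21 and 23 and at 1932, 1743, 2250 and 2144 CPM in rats 25, 27, 29 and 31 (1.12 ± 0.14 SE, adjusted p = 0.000424). *ABCB1*, an efflux pump for drugs, was at 4.51, 7.88, 5.42 and 6.04 CPM against 17.1, 27.8, 29.3 and 26.6 CPM (2.05 ± 0.19, adjusted p = 8.83e-05). In both genes all rats of the second set were above all of the first. *SLCO1A2* rose as well (1.71), from counts that were not whole, and *ABCC4*, which pumps out nucleotides and organic anions, rose by less (0.42) with overlapping sets, a call that was lost without rat 17, 19, 21 or 29 (adjusted p up to 0.0678). Among 18 amino acid transporters, 4 were higher and 2 lower (33.3% called, beside 18.3% of all symbols). The higher count was 3 without rat 17, 19, 21 or 31 and 6 without rat 23. *SLC1A1*, the glutamate carrier EAAT3, went from 147 to 160 CPM up to 211 to 262 CPM, and the peptide carrier *SLC15A2* from 83.5 to 115 CPM down to 60.0 to 71.0 CPM.

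Marker genes of the proximal tubule were mostly higher. Of 12 tested, 7 were higher and 1 lower (66.7% called, beside 18.3% of all symbols, median log2 fold change 0.40). *AQP1*, the water channel, was at 1247, 1256, 1548 and 1532 CPM in rats 17, 19, 21 and 23 and at 2058, 1930, 2198 and 2269 CPM in rats 25, 27, 29 and 31 (0.57 ± 0.09 SE, adjusted p = 0.00184). *SLC13A3*, the dicarboxylate carrier, was at 1484, 1550, 1659 and 1556 CPM against 2315, 2335, 2644 and 2694 CPM (0.65 ± 0.07, adjusted p = 0.000242). Both were separated by more than the range within either set. The exception was *CUBN*, the receptor cubilin that takes up filtered proteins, at 922, 825, 1211 and 1165 CPM against 478, 636, 571 and 513 CPM (-0.93 ± 0.13, adjusted p = 0.00089). Genes of its last segment went down or did not pass, with 0 of 6 higher and 2 lower. These were *SLC7A13*, a cystine and aspartate carrier of segment 3 (33.7 to 73.4 CPM against 11.5 to 19.5 CPM, log2 fold change -1.98, counts not whole), and *SLC5A10*, a sugar carrier (-1.26). Of 7 genes known to differ between male and female rodent kidneys, 1 was higher and 2 lower, namely *SLC22A6*, *SLC22A7* and *SLC7A13*, which are described above. The 7 listed Y-linked genes and *XIST* were not among the symbols deposited for the rats and could not be analysed. Of 4 X-linked genes that escape inactivation only *EIF1AX* passed (0.21), a call that was lost without rat 17, 19, 21 or 25.

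Most of the called marker genes of the glomerulus and of the later nephron were lower in the rats 25 to 32, with *AQP3* the exception. In the podocyte list 6 of 7 genes were lower and none higher (85.7% called, beside 18.3% of all symbols, median log2 fold change -0.67). *WT1*, a transcription factor of podocytes, was at 40.4, 35.3, 28.1 and 33.4 CPM in rats 17, 19, 21 and 23 and at 20.6, 21.7, 21.7 and 19.9 CPM in rats 25, 27, 29 and 31 (-0.73 ± 0.10 SE, adjusted p = 0.000769). *NPHS1*, nephrin of the slit diaphragm, was at 186, 221, 186 and 177 CPM against 144, 137, 110 and 101 CPM (-0.67 ± 0.12, adjusted p = 0.0033). Neither gene overlapped between the sets. *PTPRO*, a phosphatase of podocyte foot processes, fell by 0.70. *COL4A3*, a basement membrane collagen chain of the glomerulus, was at 98.6 to 117 CPM against 39.4 to 82.8 CPM, with the lowest values in rats 29 and 31 (log2 fold change -0.82, counts not whole). Its call was lost without rat 19, 23 or 29 and without a filter on low counts (adjusted p up to 0.0756). Of 8 endothelial genes, 4 were lower and none higher, among them *EHD3* (-0.56), found in glomerular endothelium, and *KDR* (-0.25), the VEGF receptor. *VEGFA*, its ligand, was also lower (-0.41).

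All 4 tested intercalated cell genes were lower (median log2 fold change -0.47), as were 2 of 3 of the thick limb and 2 of 3 of the distal convoluted tubule. *SLC4A1*, the anion exchanger of acid-secreting intercalated cells, went from 309 to 386 CPM down to 220 to 267 CPM, and *SLC12A1*, the sodium-potassium-chloride carrier of the thick limb, from 641 to 715 CPM down to 373 to 525 CPM. The intercalated count was 2 without rat 17, 19 or 29, and the thick limb count was 1 without rat 17, 21, 23, 27, 29 or 31. Of 5 principal cell genes, 3 were lower and 1 higher. The sodium channel subunit *SCNN1G* was at 98.4, 96.7, 101 and 99.8 CPM in rats 17, 19, 21 and 23 and at 71.9, 67.9, 72.4 and 72.5 CPM in rats 25, 27, 29 and 31 (-0.50 ± 0.05 SE, adjusted p = 0.000129), which is a fall with very little spread in either set. *AQP3*, the basolateral water channel of the same cells, went the other way (0.54). In the list of inner medulla and thin limb, 2 of 4 were lower, among them *AKR1B1* (-0.39).

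**Figure D3:**
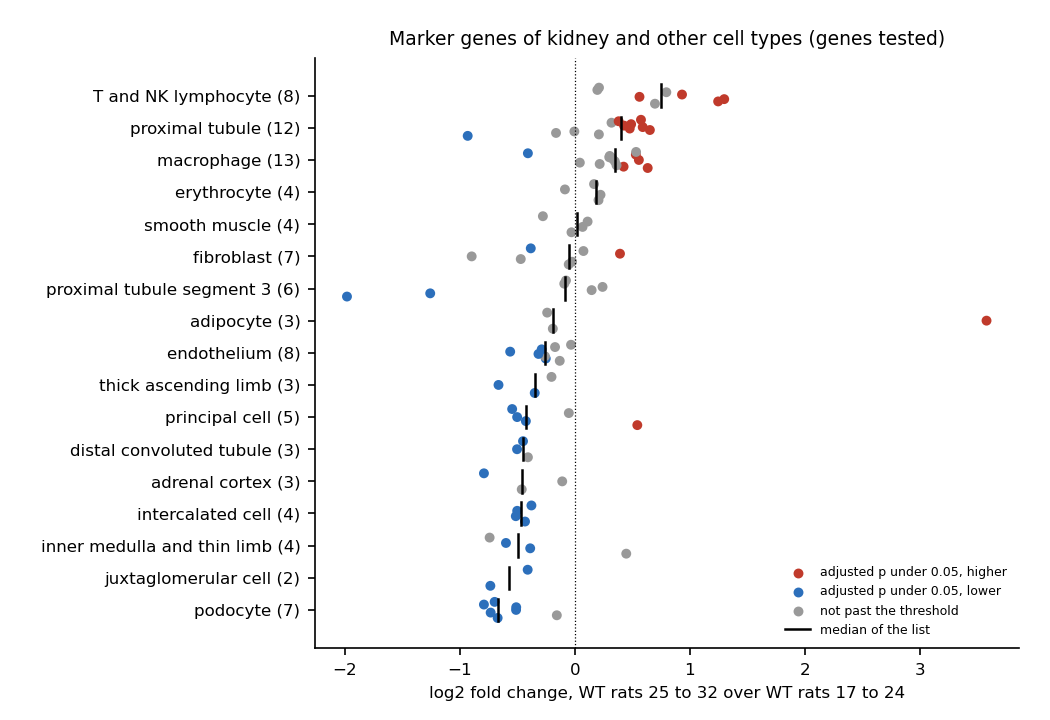
log2 fold change of each tested marker gene between WT rats 25 to 32 and 17 to 24, by cell type, with the number tested in brackets, red and blue points for genes past the adjusted p threshold and a black bar for the list's median. The medians of the lymphocyte, proximal tubule and macrophage lists lie to the right of 0, and the podocyte list has the lowest median (-0.67).

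Some genes of T cells and macrophages were higher. In the T and NK lymphocyte list 4 of 8 were higher and none lower (median log2 fold change 0.75). *CD8A* was at 1.85, 1.71, 1.51 and 1.10 CPM in rats 17, 19, 21 and 23 and at 3.39, 2.29, 3.92 and 2.41 CPM in rats 25, 27, 29 and 31 (0.93 ± 0.23 SE, adjusted p = 0.0166). *CD4*, which rat macrophages also carry, was at 17.9, 20.6, 14.04 and 15.4 CPM against 23.2, 29.4, 26.3 and 22.96 CPM (0.56 ± 0.13, adjusted p = 0.0108). The remaining pair, *CD3E* (1.25) and *CD3G* (1.30), are chains of the T cell receptor complex that were named after their values were seen. *CD8A* lost its call without rat 29 (adjusted p = 0.0544). Of 13 macrophage genes, 4 were higher and 1 lower, and only 1 was higher without rat 21 or rat 29 and none lower without rat 17, 21, 23, 25 or 31. *CSF1R*, the macrophage growth factor receptor, was at 26.9 to 30.9 CPM against 37.8 to 42.4 CPM (0.42 ± 0.07, adjusted p = 0.00191), and the complement gene *C1QB* rose by 0.56, which was lost without rat 17, 21, 29 or 31. No gene of the B lymphocyte list was abundant enough to be tested, and its 6 genes found summed to 0.55 to 1.61 CPM.

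The list of angiotensin and mineralocorticoid genes moved almost as a whole but not in 1 direction. Of its 8 tested genes, 3 were higher, *AGT* as given above among them, and 4 were lower. The receptor *AGTR1* fell (-0.41) from counts that were not whole. *HSD11B1*, which activates glucocorticoid, was at 366, 337, 285 and 261 CPM against 544, 550, 561 and 608 CPM (0.83 ± 0.10, adjusted p = 0.000359). *HSD11B2*, which inactivates it in mineralocorticoid target cells, was at 681, 674, 720 and 652 CPM against 505, 431, 492 and 472 CPM (-0.54 ± 0.07, adjusted p = 0.000424). The pair of enzymes thus moved in opposite directions, each without overlap.

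In fatty acid oxidation and ketone synthesis, 5 of 23 were higher and 2 lower (30.4% called, median log2 fold change 0.21), and 9 were higher without rat 23 and 10 without rat 27, with 1 lower without rat 21, 23 or 25. *ACADM*, a dehydrogenase of medium-chain fatty acids, rose by 0.56, and *PDK4*, a brake on pyruvate oxidation, fell by 0.61. Among 18 targets of the oxidative stress factor NRF2, 5 were higher and 3 lower, and only 3 were higher without rat 17, 19, 21 or 29, against 8 without rat 23. The lower count was 1 without rat 17, 19, 23 or 29. *GCLC*, the rate-limiting enzyme of glutathione synthesis, was at 419, 222, 317 and 412 CPM against 1151, 789, 732 and 789 CPM (1.31 ± 0.21, adjusted p = 0.00264), whereas *NQO1*, a quinone reductase, fell by 0.38 with an adjusted p of 0.0494. The call of *NQO1* was lost without rat 17, 19, 23, 25, 27 or 29. It was also lost with DESeq2's size factors and without a filter on low counts.

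Of 16 tested cytochrome P450 symbols, 4 were higher and 4 lower (50% called, beside 18.3% of all symbols). *CYP27B1*, which makes active vitamin D, was at 1.81, 1.004, 2.83 and 3.05 CPM in rats 17, 19, 21 and 23 and at 3.84, 6.12, 5.80 and 6.16 CPM in rats 25, 27, 29 and 31 (1.31 ± 0.29 SE, adjusted p = 0.0112). *CYP39A1*, an oxysterol hydroxylase, was at 6.28 to 7.02 CPM against 4.01 to 4.25 CPM (-0.74 ± 0.10, adjusted p = 0.000769). *CYP2D6* (3.35) and *CYP2J2* (1.02) rose from counts that were not whole, and several rodent genes can share these symbols. In the list of phosphate and vitamin D handling, 3 of 11 were higher and 2 lower, with the phosphate carrier *SLC34A3* up by 0.30 and the calcium channel *TRPV5* down by 0.45, and 1 was lower without rat 21, 23 or 29. Of 29 lysosomal genes, 7 were higher and none lower (24.1% called, beside 18.3% of all symbols), and the count was 3 or 4 without rat 17, 19, 23, 25, 29 or 31. *CTSA*, the protective protein of lysosomal hydrolases, was at 1812, 1969, 1949 and 1936 CPM against 2433, 2649, 2804 and 2898 CPM (0.47 ± 0.07, adjusted p = 0.00149).

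Genes of tubular injury were split, with 3 of 17 higher and 5 lower (47.1% called, beside 18.3% of all symbols). *HAVCR1*, the injury molecule KIM-1, rose from 2.30 to 3.79 CPM to 7.08 to 10.9 CPM (1.49 ± 0.20 SE, adjusted p = 0.000637, counts not whole), and *SOX9*, a repair transcription factor, rose by 0.82. *FGB*, a fibrinogen chain, was at 4.91, 3.93, 3.36 and 3.12 CPM in rats 17, 19, 21 and 23 and at 1.34, 1.59, 1.13 and 0.964 CPM in rats 25, 27, 29 and 31 (-1.61 ± 0.21, adjusted p = 0.000492). *LCN2*, the injury protein NGAL, did not pass (2.09 to 2.96 CPM against 2.45 to 3.23 CPM, adjusted p = 0.441). Of 26 cell cycle genes, 2 were higher, *TPX2* (0.93) and *CDC20* (0.42), and none lower. That is 7.69% called, below the 18.3% of all symbols, and the list's median log2 fold change was 0.04. *CDC20* was lost without any 1 of rats 17, 21, 23, 25, 27 and 31, which left 1 higher. Its call was also lost after thinning to the smallest total. Without rat 29 the list had 3 higher, and without rat 27 it had 1 lower. Of 23 collagen and matrix genes, 1 was higher, *COL1A1* (0.39), and 3 lower (17.4% called, near the share of all symbols), and 7 were lower without rat 27 but 1 without rat 19, 23 or 29, with 2 higher without rat 31. Among 7 senescence genes, *CDKN2C* (0.59), an inhibitor of cyclin-dependent kinases, and *GDF15* (0.58), a stress cytokine, were higher, and *CDKN1B* (-0.24), another such inhibitor, was lower, a call that was lost without any 1 of rats 17, 19, 21, 23, 29 and 31.

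Clock genes and ribosomal protein genes did not pass in edgeR's test in either direction. Of 19 clock genes, 1 had an unadjusted p under 0.05 and each of DESeq2 and limma-voom called 1, and of 45 ribosomal protein genes 4 had an unadjusted p under 0.05 and none was called by either. Leaving out 1 rat gave calls in both lists. Of the clock genes 2 were lower without rat 17 and 1 was higher without rat 23 or 31, and of the ribosomal protein genes 2 were higher without rat 27 and 1 was lower without rat 29 or 31. *ARNTL*, a core clock activator, was at 31.1, 8.65, 5.54 and 5.82 CPM in rats 17, 19, 21 and 23 and at 18.97, 9.22, 5.57 and 5.12 CPM in rats 25, 27, 29 and 31 (-0.40 ± 0.68 SE, adjusted p = 0.741). Rats 17 and 25, the lowest numbers of their ranges, were the highest of their set for *ARNTL* and the lowest for *PER1*, *PER2*, *DBP* and *NR1D1*. The KO rats 18 and 26 were likewise highest of their sets for *ARNTL* and lowest for *DBP* and *NR1D1*. For *PER1* they were instead the highest, at 90.8 and 66.3 CPM. For *PER2* KO rat 18 was the lowest of its set, but KO rat 26 (58.9 CPM) was above KO rat 28 (47.0 CPM). *PER1* ranged from 21.5 to 134 CPM in the first set and from 24.9 to 91.8 CPM in the second, so that the spread within each set exceeded the difference between their means. Of 19 immediate early genes 1 was lower (5.26% called), namely *DUSP1*, a phosphatase of MAP kinases (-0.54). Of 11 heat shock genes 1 was higher (*BAG3*, 0.50) and 2 lower (27.3% called, beside 18.3% of all symbols). The lower ones were *HSPB1* (-0.43, lost without rat 19, 21 or 23) and *HSPA1B* (-0.90, from counts not whole). Of 21 genes of the unfolded protein response and ATF4, 1 was higher and 4 lower, and the lower count was 1 or 2 without any 1 of the 7 rats other than rat 19, with 2 higher without rat 21 or 23. The hypoxia list had 4 of 11 lower and none higher, and 2 lower without rat 19, 21, 29 or 31. The 12 mitochondrially encoded genes had 2 higher, a count that was 0 without rat 19, 21, 25, 29 or 31 and 6 without rat 17, beside the shares of mitochondrial reads given above. Of 28 nuclear respiratory chain genes 2 were higher (7.14% called, beside 18.3% of all symbols), and of 20 interferon-stimulated genes 1 was higher (5% called). Of 8 genes of MHC class I 1 was higher (*B2M*, 0.46) and 1 lower (25% called). The respiratory chain count was 7 without rat 27 and 1 without rat 19 or 29. The interferon list had none higher without rat 17, 21 or 29, and 2 lower without rat 21. MHC class I had 2 lower without rat 21.

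**Figure D4:**
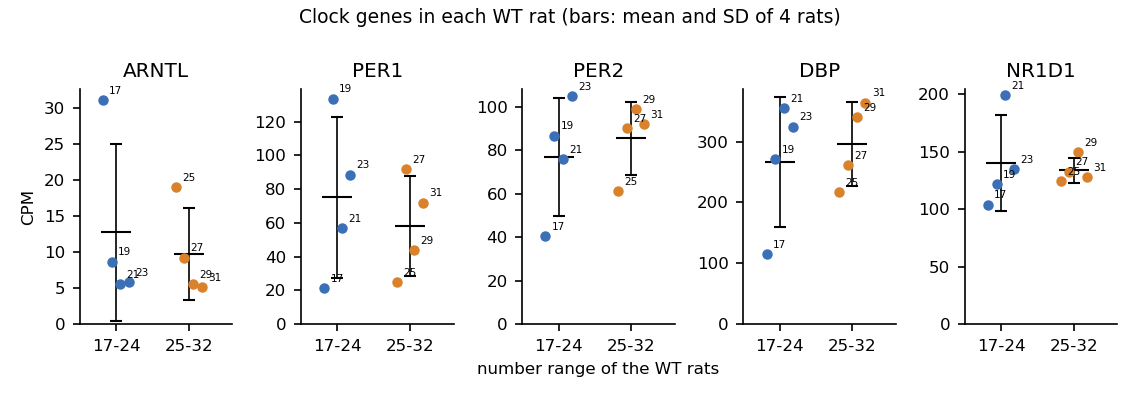
CPM of 5 clock genes in each WT rat, labelled by rat number, with the mean and SD of the 4 rats of each range. Rats 17 and 25 are the highest of their range for *ARNTL* and the lowest for *PER1*, *PER2*, *DBP* and *NR1D1*, and the ranges overlap for all 5 genes.

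The same contrast was made in KO rats, which share no library with the WT contrast. There 5382 of 11700 symbols (46.0%) passed. Of the 2089 symbols called in WT that were also tested in KO, 1128 (54.0%) were called in the same direction there and 98 in the opposite one. Of the 11443 symbols tested in both, 46.1% were called in KO in either direction, so this share is no like base for the 54.0%. The same sign in KO was seen for 1701 (81.4%) of the 2089, beside 66.1% of the 11443. The 1128 were 21.4% of those called in KO. Among the 248 with at least 2-fold change in WT, 238 had the same sign in KO (beside 66.1% of the 11443 symbols tested in both) and 194 were called in the same direction.

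All 24 symbols of the largest rises and falls were called in the same direction in KO, with *ADH6* and *ADH1A* counted as 2 symbols though they are 1 measurement. None overlapped between the ranges there, beside 42.3% of all symbols tested in KO without overlap. *SLC22A10* was at 1.14 to 2.60 CPM in the KO rats 18 to 24 and at 35.9 to 52.1 CPM in the KO rats 26 to 32, *ADH6* at 79.2 to 173 CPM and 0.321 to 1.16 CPM, and *OAT* at 1118 to 2850 CPM and 290 to 342 CPM. A difference between the WT and KO changes was tested as an interaction, which passed for 1745 of 11839 symbols (14.7%; 904 of them, 7.64%, with a WT change above the KO change and 841, 7.1%, below it) and for 497 (23.8%) of the 2089. It did not pass for 23 of the 24, which does not show that the changes were equal. The exception was *CRTAC1*, which fell by 2.005 on the log2 scale in WT and by 0.52 in KO (interaction adjusted p = 0.00352). Podocyte genes were lower in both genotypes, with a median of -0.67 in WT and -0.77 in KO, where 6 of 7 were also lower. The proximal tubule list did not follow, since none of its 12 genes was higher in KO and 5 were lower (median -0.15). For *AQP1* (0.57 in WT and -0.04 in KO) and *SLC13A3* (0.65 and 0.05) the interaction passed, with adjusted p-values of 0.00412 and 0.00162.

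The 5 genes with the smallest interaction p-values among those called in WT differed in the direction of change, or in whether it passed, between the genotypes. *ANXA5*, a calcium-dependent membrane-binding protein, was at 85.8, 76.3, 81.6 and 74.3 CPM in WT rats 17, 19, 21 and 23 and at 69.3, 62.5, 62.7 and 67.1 CPM in WT rats 25, 27, 29 and 31, against 98.6 to 120 CPM and 208 to 261 CPM in the KO ranges (interaction adjusted p = 1.82e-05). *ELF3*, an epithelial transcription factor, was at 39.9, 41.7, 42.6 and 41.7 CPM and at 37.3, 33.3, 33.1 and 36.9 CPM in WT, against 50.2 to 59.4 CPM and 83.0 to 101 CPM in KO (interaction adjusted p = 3.14e-05). *LGALS3*, galectin-3, was at 15.4 to 20.6 CPM and 11.5 to 16.9 CPM in WT and at 21.5 to 30.6 CPM and 63.3 to 88.2 CPM in KO (interaction adjusted p = 4.05e-05). These genes and *FGB* were lower in the second range in WT and higher in KO, though the WT call of *ELF3* was lost without rat 29 (adjusted p = 0.0569) and that of *LGALS3* without rat 17, 21, 23, 25, 27 or 29 (adjusted p up to 0.116). The WT call of *LGALS3* was also lost with DESeq2's size factors, with all 16 rats in the fit and after thinning. *SLC39A8*, a zinc and manganese importer, was instead at 35.1, 31.9, 30.3 and 31.1 CPM and at 53.8, 51.5, 53.1 and 56.0 CPM in WT, and at 30.2 to 31.8 CPM and 28.6 to 31.2 CPM in KO, where it did not pass (adjusted p = 0.386).

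**Figure D5:**
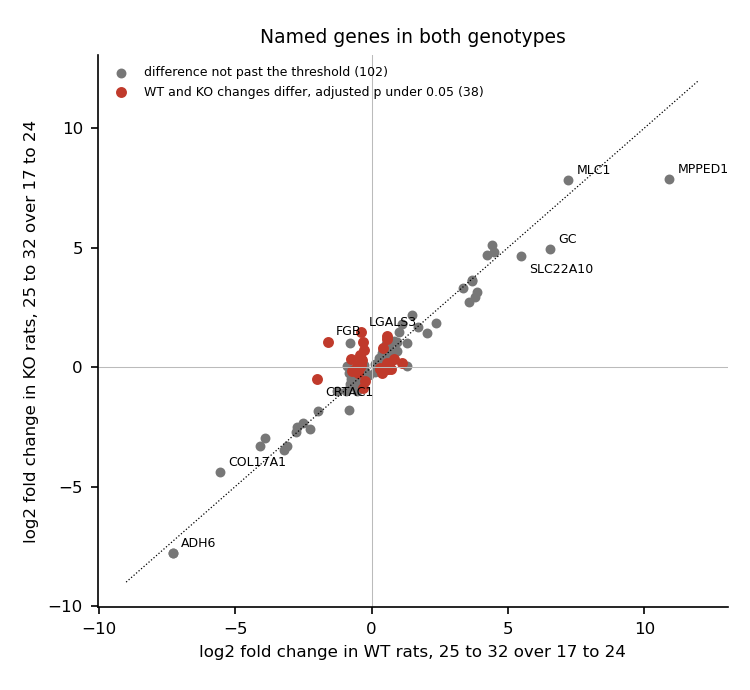
log2 fold change between the ranges in WT rats (horizontal) and in KO rats (vertical) for 140 named genes, with the dotted line marking equal change and red points the 38 genes whose WT and KO changes differed at an adjusted p under 0.05. The genes of largest change lie along the line, and *FGB* and *LGALS3* lie on opposite sides of 0.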

How the data were processed

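Bulk RNA was sequenced from kidneys of 8 WT and 8 *Ctns* KO rats, 1 library per rat. The labels name both kidney cortex and a protocol for dissected mouse tubules. Libraries were made with a stranded mRNA kit and read in pairs. The submitters' processing notes name bcl2fastq 2.20, STAR 2.7.3, DESeq2 1.24.0, R 3.6.1 and the builds rn5 and mm10, without roles. For the rats, the authors deposited estimated counts per gene symbol, which were found to be reads plus 1/6, with no scaling between libraries. The mouse table was not used here.

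The 1/6 was taken off and values were rounded to whole numbers. Of all values, 97.7% were whole within 0.01 before rounding, and 556 of 14931 symbols held a value that was not. At 50 reads or more, 95 symbols in 43 groups had identical values. Every pair of WT libraries of the same set differed by more than sampling noise (for the closest of 12 pairs, chi-square divided by its degrees of freedom was 12.4). All 16 rat columns were matched to samples by name. No source says that rats of a set came from separate litters, so p-values measure the spread between these rats.

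Groups were compared with edgeR 4.0.16 in R 4.3.3 (quasi-likelihood test, robust, TMM normalisation, its filter on low counts), with Benjamini-Hochberg adjustment over all symbols tested, a threshold of 0.05 and no covariate. The WT fit held the 8 WT rats, the KO fit the 8 KO rats and the interaction all 16. The quasi-likelihood test gives no SE of its own. The SE printed with a log2 fold change is its absolute value divided by the square root of the test's F statistic. Library values were compared by exact permutation over 70 splits, two-sided. With 200 simulated 2-fold changes, the WT fit recovered 91% with 12 false calls among 11504 symbols, the KO fit 96.5% with 15 among 11700 and the interaction 85.5% with 10 among 11839. The simulated counts used the spread that edgeR itself estimated, and the changed symbols were all above 1 CPM. These figures therefore check that the fits run as meant and do not give the error rate of the real calls. Alternatives were DESeq2 1.42.0, its size factors, limma-voom (limma 3.58.1), no filter, other treatment of identical or not whole symbols, thinning, mitochondrial genes left out, all 16 rats, and each rat left out.

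Named were *CTNS*, the 12 largest rises and falls among called symbols of at least 1 CPM whose sets did not overlap, up to 4 called genes of largest change in each of 48 gene lists (29 by function, 19 by cell type) with 5 clock genes, and the 5 called genes of smallest interaction p. Of the 140 genes that met this rule, 134 were called. Some of them are not reported here by name and stay in all counts. Other genes named in the text as list members were chosen after their values were seen. The comparison, the lists and the rule were chosen with earlier results of these data known. Lists are described by counts and medians, without a test.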

Additional observations from a re-analysis of the deposited data

Results flagged for a closer look

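Within each set of 4 WT rats, the gap between the extreme rat and its nearest neighbour was set against the whole range of the set, for the named genes in 280 sets. In 16 sets it exceeded Dixon's 95% critical value, a share near the about 1 in 20 that chance gives. The rats below are therefore a list of flagged values and are not shown to be unusual. Rat 31 stood above the other rats of its set for *ADH6* and *ADH1A* (1.48 CPM, 1 measurement under 2 symbols). Rat 27 stood apart for *CNR1* (1.74 CPM, high), *PSAT1* (295 CPM, high) and *SCNN1G* (67.9 CPM, low), and rat 25 for *DHCR7* (43.8 CPM, high), *GCLC* (1151 CPM, high), *CYP27B1* (3.84 CPM, low) and *SCNN1B* (79.3 CPM, high). In the first set, rat 23 stood apart for *GDF15* (10.6 CPM, high), *COL4A5* (59.5 CPM, high) and *ABCC4* (94.1 CPM, high). Rat 21 was low for *B2M* (741.6 CPM). Rat 17 was low for *EHD3* (61.3 CPM) and high for *ARNTL* (31.1 CPM).

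A change between the ranges that differed between WT and KO rats, by the interaction test, was called for 1745 symbols, among them 38 of the named genes. The WT log2 change minus the KO log2 change was below 0 for *LGALS3* (-1.85), *FGB* (-2.66), *ANXA5* (-1.34), *ELF3* (-0.98), *HSPB1* (-0.90), *AKR1B1* (-0.72) and *UMOD* (-0.65), each of which was lower in the second range in WT and higher in KO by its own test. Below 0 with a fall in WT were also *CRTAC1* (-1.48), *TAP2* (-1.11), *HSD11B2* (-0.56), *NQO1* (-0.55), *IGFBP2* (-0.53), *PDIA4* (-0.48), *TRPV5* (-0.47), *LAMB1* (-0.45), *SCNN1B* (-0.44) and *SCNN1G* (-0.24). Below 0 with a rise in WT were *C1QB* (-0.75), *GDF15* (-0.60) and *CSF1R* (-0.35), which rose more in KO. Above 0 with a rise in WT were carriers and channels, namely *SLC22A6* (0.96), *SLC39A8* (0.79), *SLC1A1* (0.70), *AQP3* (0.64), *AQP1* (0.63), *SLC13A3* (0.62), *ABCC4* (0.58) and *SLC34A3* (0.40). With them were *STARD4* (0.61), *IGF2R* (0.58), *ACAA1* (0.55), *HSD11B1* (0.51), *MT-ND4* (0.41), *ACADM* (0.41) and *SC5D* (0.34). *PSAT1* (0.59) and *KDR* (0.34) fell in both genotypes and fell more in KO, though the WT call of *PSAT1* was lost without rat 17, 21, 23, 25, 29 or 31 and with all 16 rats in the fit (adjusted p up to 0.120). The WT calls of *HSPB1*, *STARD4*, *ABCC4*, *NQO1*, *MT-ND4*, *UMOD*, *C1QB*, *ELF3* and *LGALS3* were also lost under at least 1 alternative, with adjusted p-values of up to 0.141.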

How the results depend on the processing

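The number of symbols called between the WT ranges (2108) was 2567 with DESeq2, 2503 with all 16 rats in the fit, 2091 with limma-voom, 2073 with DESeq2's size factors, 2051 without a filter on low counts, 2041 after thinning to the smallest total, 2054 without symbols that were not whole, 2100 with identical symbols once and 2102 without mitochondrial genes. Leaving out 1 WT rat gave 1370 to 2313 calls, 707 to 1174 higher and 663 to 1139 lower. The lower calls were 663 without rat 29 and 731 without rat 19. The interaction (1745) gave 1010 to 2392 calls without 1 rat, 523 to 1388 higher and 487 to 1025 lower, with totals of 1010 without KO rat 28, 1135 without KO rat 22 and 1163 without WT rat 27, and higher calls of 573 without KO rat 22, 602 without WT rat 27 and 1388 without KO rat 30. The cause was not tested. The KO count stayed between 4030 and 5924. Of the 140 named genes, 98 kept direction and side of the threshold under the 17 alternatives run, 37 lost their call under at least 1 and 5 changed sign. Those 5 were clock genes that were never called, with log2 changes, over leaving out each rat, of -0.70 to 0.039 for *PER1* (above 0 without rat 19), -0.082 to 0.32 for *PER2* and -0.12 to 0.29 for *DBP* (both below 0 without rat 17), -0.94 to 0.52 for *ARNTL* (above 0 without rat 17) and -0.21 to 0.13 for *NR1D1* (above 0 without rat 21). *CYP11A1*, a steroidogenic gene lower in the WT fit (-0.79), lost its call with all 16 rats (adjusted p = 0.487). No paired analysis was possible because the rats of the 2 ranges share no replicate number.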

Other observations

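Further gene groups were read from the same fit. Of 12 tested genes of the growth hormone and insulin-like growth factor axis, 1 was higher in the WT rats 25 to 32 and 3 were lower. *IGF2R*, the receptor that carries hydrolases to the lysosome, was at 581, 514, 544 and 505 CPM in rats 17, 19, 21 and 23 and at 790, 767, 761 and 726 CPM in rats 25, 27, 29 and 31, with no overlap (log2 fold change 0.48 ± 0.07 SE, adjusted p = 0.000742). *IGFBP2*, a binding protein of the growth factors, fell by 0.38, and *IRS1*, an adaptor of their receptors, by 0.52. The call of *IRS1* was lost without rat 17, 19, 21, 23, 29 or 31, with all 16 rats in the fit and after thinning. The lower count was 1 without rat 17, 19, 21, 23 or 29, and the higher count 2 without rat 21 or 23. Of 21 sterol and fatty acid synthesis genes, 3 were higher and 1 lower (19.05% called, near the 18.3% of all symbols), with *DHCR7*, the last enzyme of cholesterol synthesis, at 15.5 to 23.9 CPM against 30.4 to 43.8 CPM (0.81 ± 0.15, adjusted p = 0.00435). In the sterol list 5 were higher without rat 17 or 31, and 2 were lower without rat 17, 25 or 29 and none without rat 21. In the adipocyte list, of which 3 genes were tested, *CIDEC* was the 1 called. In the adrenal cortex list *CYP11A1* was the 1 called of 3, and the 6 genes of that list summed to 10.9 to 15.99 CPM in the first set and 7.55 to 9.01 CPM in the second. No gene of the smooth muscle or erythrocyte lists passed in edgeR's test, with none at an unadjusted p under 0.05 and none called by DESeq2 or limma-voom.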
